A study of Homo sapiens with 10 samples.

Results

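The S100 genes encode small calcium-binding proteins, and 10 of them were followed here across 5 A549 lines. They were taken by name from the deposited count table: S100A2, S100A3, S100A4, S100A6, S100A10, S100A11, S100A13, S100A14, S100A16 and S100P, 10 of the 33551 rows. All 10 passed the filter on low counts, which left 17978 genes for testing. The table holds 21 rows of S100 genes in all. The other 11 stayed under 1 CPM (a gene's counts scaled to the size of the library) in every library. The member S100A14 did so as well. Of the 11, S100A1 and S100A5 also passed the filter, and 5 (S100A7, S100A7A, S100A7L2, S100A8 and S100A12) had 0 counts throughout.

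A549 is an established human lung adenocarcinoma line. The lines were wild type (WT), an ABCA3 knockout (KO) and lines with the ABCA3 variants L101P, E292V or E690K. ABCA3 is the lipid transporter of the lamellar bodies that hold lung surfactant. Each line gave 1 untreated library and 1 library from cells transduced overnight with the lentiviral vector VSVG LV-ABCA3:GFP at a multiplicity of infection of 20, so each line and treatment had 1 library and each genotype 1 line. Whether a line was 1 clone is not given in the labels, so a difference between lines cannot be told apart from a difference between clones or cultures.

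Total counts ran from 59430095 (L101P, untreated) to 96811421 (L101P, transduced), and the 10 S100 genes took 0.208% to 0.419% of them. The library labelled KO untreated held ABCA3 at 601 CPM and 2842 EGFP counts, while the library labelled KO transduced held 25.8 CPM and 4 counts. This KO pair therefore goes against its labels, and every result for it is a result for the libraries labelled so. EGFP was also counted in the other untreated libraries. Untreated first and transduced second, EGFP went from 5924 to 12432 counts in WT, 60 to 3474 in L101P, 1634 to 6338 in E292V and 1236 to 1406 in E690K, so untreated WT held more than transduced L101P or E690K. ABCA3 went from 362 to 610 CPM in WT, 1156 to 896 in L101P, 992 to 1035 in E292V and 890 to 968 in E690K. Outside KO too, EGFP and ABCA3 reads thus separate untreated from transduced libraries unevenly. Reads of a second reporter, tdTomato, ran from 236 to 756 counts in the WT, L101P, E292V and E690K libraries. Both KO libraries had 0, so KO differs from WT in this reporter too. The part of that difference in the KO results was not tested. The alveolar type 2 markers (surfactant protein genes and NKX2-1) summed to 0.385 to 0.848 CPM per library, so the defining genes of that cell type were close to absent. The keratins KRT8 and KRT18 and other markers of simple epithelium summed to 5364 to 11799 CPM.

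S100 proteins carry a pair of EF-hand loops and work mostly as dimers. Binding of calcium opens a pocket that takes up target proteins such as annexins, myosin or ezrin. S100A10 is the exception that no longer needs calcium and sits in a stable complex with annexin A2. Most of the genes lie side by side in a cluster on the long arm of chromosome 1, while S100P lies apart on chromosome 4. Several members are known as highly expressed genes of epithelia and of carcinomas, including those of the lung.

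The 9 genes of chromosome 1 all lie on the minus strand, from S100A10 at chr1:151982915-151994390 to S100A13 at chr1:153618787-153631360 (GRCh38, GENCODE release 29). S100P lies on the plus strand at chr4:6693069-6697170. The promoters of 5 members are printed because their genes differ most in how they varied: S100A4 and S100P spread widest between lines among the 8 members past the test of line differences, S100A6 was the most abundant per length, and S100A10 and S100A11 varied least and moved together. Each sequence is the 250 bases before the start site in RefSeq (GRCh38.p14), 5′ to 3′ on the gene's strand. All 5 windows lie inside the GENCODE spans of their genes, so the RefSeq starts are not the 5′ ends of those spans. Capitals mark TATAA (the core of a TATA box), the GC box letters GGGCGG and the AP-1 letters TGANTCA. All were searched on both strands, and neighbouring matches may overlap. The windows are chr1:153545807-153546056 for S100A4, chr1:153535992-153536241 for S100A6, chr1:151993860-151994109 for S100A10 and chr1:152037005-152037254 for S100A11, all minus strand, and chr4:6693628-6693877 for S100P, plus strand.
S100P: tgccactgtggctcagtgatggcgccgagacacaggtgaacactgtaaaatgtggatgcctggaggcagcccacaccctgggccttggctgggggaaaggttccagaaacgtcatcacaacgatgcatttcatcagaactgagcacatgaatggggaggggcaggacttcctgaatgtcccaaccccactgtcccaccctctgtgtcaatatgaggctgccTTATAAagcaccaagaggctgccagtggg
S100A4: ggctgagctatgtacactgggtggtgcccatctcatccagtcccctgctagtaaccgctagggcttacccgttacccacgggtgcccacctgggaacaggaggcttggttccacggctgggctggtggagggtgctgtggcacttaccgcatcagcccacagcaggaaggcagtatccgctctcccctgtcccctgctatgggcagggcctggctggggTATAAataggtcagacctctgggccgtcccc
S100A6: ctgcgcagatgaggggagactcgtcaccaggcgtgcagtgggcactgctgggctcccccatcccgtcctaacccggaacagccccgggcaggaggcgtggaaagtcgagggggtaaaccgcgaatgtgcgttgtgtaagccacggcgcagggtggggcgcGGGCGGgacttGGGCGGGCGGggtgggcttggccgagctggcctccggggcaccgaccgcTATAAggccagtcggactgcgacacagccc
S100A10: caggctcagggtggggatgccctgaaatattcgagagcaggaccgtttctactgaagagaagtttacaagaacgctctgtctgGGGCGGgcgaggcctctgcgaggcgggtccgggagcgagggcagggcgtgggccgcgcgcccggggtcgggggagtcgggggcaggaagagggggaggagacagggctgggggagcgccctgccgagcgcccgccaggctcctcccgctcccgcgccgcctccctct
S100A11: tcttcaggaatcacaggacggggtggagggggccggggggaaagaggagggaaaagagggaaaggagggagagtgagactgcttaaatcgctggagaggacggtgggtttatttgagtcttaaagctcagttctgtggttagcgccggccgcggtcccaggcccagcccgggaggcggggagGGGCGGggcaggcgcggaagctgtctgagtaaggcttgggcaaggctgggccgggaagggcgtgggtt

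TATAA stood on the gene's own strand in the last 50 bases of 3 of these 5 windows, beginning 31 bases before the start in S100A4, 30 in S100A6 and 28 in S100P. In the same stretch 4.7% of 35116 RefSeq promoters held it. The S100A14 window and 1 of the 3 S100A13 windows held it as well, each beginning 29 bases before the start. The windows of S100A10, S100A11, S100A3, S100A2 and S100A16 held no TATAA on either strand, against 18.9% of all promoters with at least 1. Of the 5 printed windows those of S100A6, S100A10 and S100A11 held GGGCGG, as did 42.6% of all promoters. TGANTCA occurred in the S100A3 window and in 1 of the 2 S100A2 windows, against 6.6% of all promoters. A match is a description of the letters, and no readout of binding was part of these data.

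Levels are given in CPM with library sizes scaled by TMM, a trimmed mean of log ratios, and levels of different genes are compared only per kilobase of annotated exon. Per kilobase, S100A6 ranked 23rd among 17739 genes at a mean of 928 CPM, S100A11 ranked 32nd at 689 CPM and S100A10 ranked 49th at 502 CPM. S100A4 followed in place 82 at 341 CPM per kilobase and S100A16 in place 147 at 185 CPM per kilobase. The next 3 stood far lower on this scale: S100A13 at 24.8, S100P at 21.2 and S100A3 at 18.0 CPM per kilobase. S100A2 (2.14) and S100A14 (0.224 CPM per kilobase) were scarce. These A549 lines thus carried 5 abundant S100 genes, 3 at an intermediate level and 2 scarce ones, of which S100A14 had 4 to 74 counts per library and S100A2 at least 150.

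**Figure D1:**
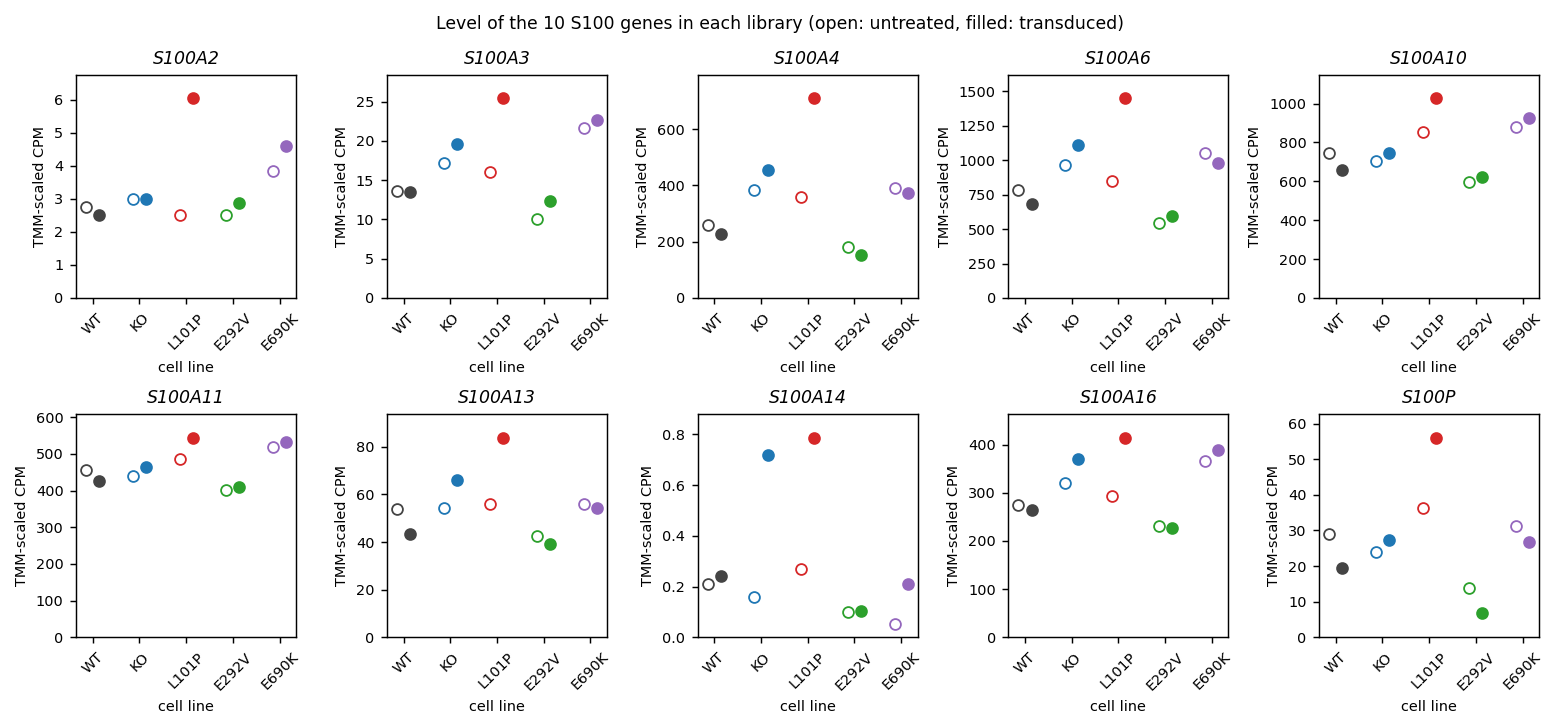
TMM-scaled CPM (vertical axis, from 0) of each S100 gene in the 5 lines (horizontal axis), 1 open point for the untreated and 1 filled point for the transduced library. All 10 genes had their highest value in the transduced L101P library, and the E292V libraries were the 2 lowest for 8 genes.

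The first question was whether the 5 lines differed in their S100 genes. The edgeR quasi-likelihood test of any difference among the lines, with the vector as a covariate, called 8 of the 10 members at an adjusted p under 0.05, against 13% of the 17978 genes tested. S100A2 (edgeR adjusted p = 0.274) and S100A14 (0.260), the 2 scarcest members, did not pass. Outside the 10 members, S100A1 (edgeR adjusted p = 0.650) and S100A5 (0.122) were tested and did not pass either. Of 9460 genes that averaged 10 CPM or more, 17.7% were called, and 8 of the 8 members in that range were called. In this fit the error is the departure of a line's 2 libraries from a common vector shift. The calls therefore describe these lines and carry no information on the spread between independent lines of a genotype.

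The same pattern returned in most members: the E292V libraries lay low and the transduced L101P library lay high. The transduced L101P library held the highest level of all 10 members, against 15.9% of the genes tested with their highest level there. Outside the 10 members, S100A1 was lowest there (0.330 CPM). S100A5 was highest in untreated E690K (0.896 CPM) and lowest in transduced E292V (0.187 CPM). Both E292V libraries lay below the other 8 libraries for 8 members, all but S100A2 and S100A14, against 8.14% of the genes tested. These shares were looked up after the pattern was seen, and the members share their libraries, so the counts are a description. In bulk RNA, fewer cells of a type and less RNA per cell cannot be told apart.

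S100A10 (p11) and S100A11 (calgizzarin, chr1:152032506-152047907) are the annexin partners of the family, S100A10 binding annexin A2 and S100A11 annexin A1. S100A10 stood at 745 CPM in untreated and 656 CPM in transduced WT, 704 and 744 in KO, 854 and 1026 in L101P, 594 and 624 in E292V, and 878 and 925 in E690K. The 4 libraries of L101P and E690K overlapped each other and lay above the 6 others. S100A11 stood at 457 and 426 CPM in WT, 441 and 465 in KO, 486 and 544 in L101P, 402 and 409 in E292V, and 520 and 533 in E690K, untreated first. It had the narrowest spread of all members, 1.30-fold between the highest and lowest line mean, and the order of lines was nearly that of S100A10. The edgeR adjusted p for any line difference was 0.00250 for S100A10 and 0.0195 for S100A11, and the S100A11 call was lost without the E292V pair (0.156) or the E690K pair (0.107). The annexin genes themselves did not pass the test in any line: ANXA2 lay between 4010 and 5642 CPM (edgeR adjusted p = 0.370) and ANXA1 between 1612 and 1958 CPM (0.584).

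S100A4, which binds non-muscle myosin and is known for its part in cell motility, lies at chr1:153543613-153550136. It stood at 260 CPM in untreated and 229 CPM in transduced WT, 384 and 455 in KO, 359 and 709 in L101P, 182 and 154 in E292V, and 390 and 372 in E690K. The highest library held 4.61 times the lowest, and the line means spread 3.02-fold, more than in 86.5% of the genes tested. KO, E690K and L101P overlapped in their ranges, all 6 of their libraries lay above WT, and both WT libraries lay above E292V. The edgeR adjusted p for any line difference was 0.00186, and the call held under all 13 other settings tried.

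S100A6 (calcyclin), a partner of the ubiquitin ligase adaptor CACYBP, lies at chr1:153534599-153536244. It stood at 787 and 682 CPM in WT, 964 and 1108 in KO, 852 and 1448 in L101P, 545 and 594 in E292V, and 1052 and 980 in E690K, untreated first. Its order of lines was that of S100A4: L101P, KO and E690K overlapped, WT lay below these and E292V below WT. The edgeR adjusted p for any line difference was 0.00669. Without the E292V pair it was 0.165.

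S100A16 (chr1:153606886-153613145), a widely expressed member, and S100A3 (chr1:153547329-153549372), known as a cysteine-rich protein of the hair cuticle, had nearly parallel levels. S100A16 stood at 275 and 264 CPM in WT, 321 and 369 in KO, 294 and 414 in L101P, 230 and 227 in E292V, and 366 and 388 in E690K, untreated first. S100A3 stood at 13.6 and 13.5 CPM in WT, 17.2 and 19.6 in KO, 16 and 25.4 in L101P, 10.0 and 12.3 in E292V, and 21.6 and 22.6 in E690K. For both genes E690K had the highest line mean, overlapped with L101P, and WT lay above E292V without overlap. The edgeR adjusted p for any line difference was 0.00357 for S100A16 and 0.00265 for S100A3. Without the E292V pair both values missed the threshold, at 0.0754 and 0.0546.

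S100A13 (chr1:153618787-153631360) takes part in the secretion of FGF1 and interleukin 1 alpha, proteins that lack a signal peptide. It stood at 54.0 and 43.3 CPM in WT, 54.5 and 66.0 in KO, 56.0 and 83.8 in L101P, 42.7 and 39.0 in E292V, and 56.1 and 54.2 in E690K, untreated first. The 4 untreated libraries other than E292V lay within 54.0 to 56.1 CPM, and the same 4 lines ran from 43.3 to 83.8 CPM in the transduced libraries. The edgeR adjusted p for any line difference was 0.0410, and the call was lost in 5 of 13 other settings. The adjusted p was 0.185 with DESeq2, 0.0610 in edgeR with the KO labels exchanged, and 0.0507, 0.261 and 0.0828 in edgeR without the KO, E292V or E690K pair. S100A13 shares 235 exon bases with S100A1 on the opposite strand. The use of strand in counting is not given in the sources used here, so reads of the 2 genes in that stretch cannot be told apart. S100A13 also shares 536 exon bases on its own strand with AL162258.1, which has no row among the deposited counts. Strand would not separate reads of S100A13 and AL162258.1 there.

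S100P, which binds ezrin and the receptor RAGE (AGER), spread widest of the members that passed. It stood at 29.1 CPM in untreated and 19.5 CPM in transduced WT, 24.0 and 27.3 in KO, 36.3 and 56.0 in L101P, 13.7 and 6.82 in E292V, and 31.1 and 26.8 in E690K. Both L101P libraries were above all others and both E292V libraries below all others, while WT, KO and E690K overlapped. The highest library held 8.22 times the lowest, and the line means spread 4.65-fold, more than in 94.0% of the genes tested. The edgeR adjusted p for any line difference was 0.00266, and the call held under all 13 other settings. EZR, the gene of ezrin, rose in KO (0.38 on the log2 scale), L101P (0.48) and E690K (0.64) against WT, with edgeR adjusted p of 0.0342, 0.00756 and 6.6e-04, and lay at -0.05 in E292V (0.903). AGER stayed between 1.59 and 2.92 CPM.

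The scarce members were S100A2 (chr1:153561108-153567890), a target of p63 in stratified epithelium, and S100A14 (chr1:153614255-153616986), a member of epithelial cells. S100A2 lay between 2.50 and 3.00 CPM in the WT, KO and E292V libraries and in untreated L101P, at 3.83 and 4.59 CPM in E690K, and at 6.04 CPM in transduced L101P. The 95% Wilson interval of that highest value was 5.22 to 6.59 CPM on the library total, and of the untreated L101P value 2.01 to 3.16 CPM. S100A14 had its highest levels in transduced L101P (0.787 CPM) and in the library labelled KO transduced (0.721 CPM), and its lowest of 0.0535 CPM in untreated E690K, where the Wilson interval reached from 0.0145 to 0.193 CPM. These intervals cover counting error only. For S100A14 a difference between lines was not detectable at this depth. S100A2 in E690K against WT was called under 2 of 11 other settings, without the L101P pair (edgeR adjusted p = 0.0426) or its transduced library (0.0412).

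The line contrasts asked which lines differed from WT. Against WT, 3 members rose in L101P and 3 in E690K, and none passed the test in KO or E292V. S100A3 and S100A10 rose in both L101P and E690K, S100A4 in L101P and S100A16 in E690K. In E292V 9 of 10 members lay below WT, with a median of -0.27 on the log2 scale, but no single gene passed.

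**Figure D2:**
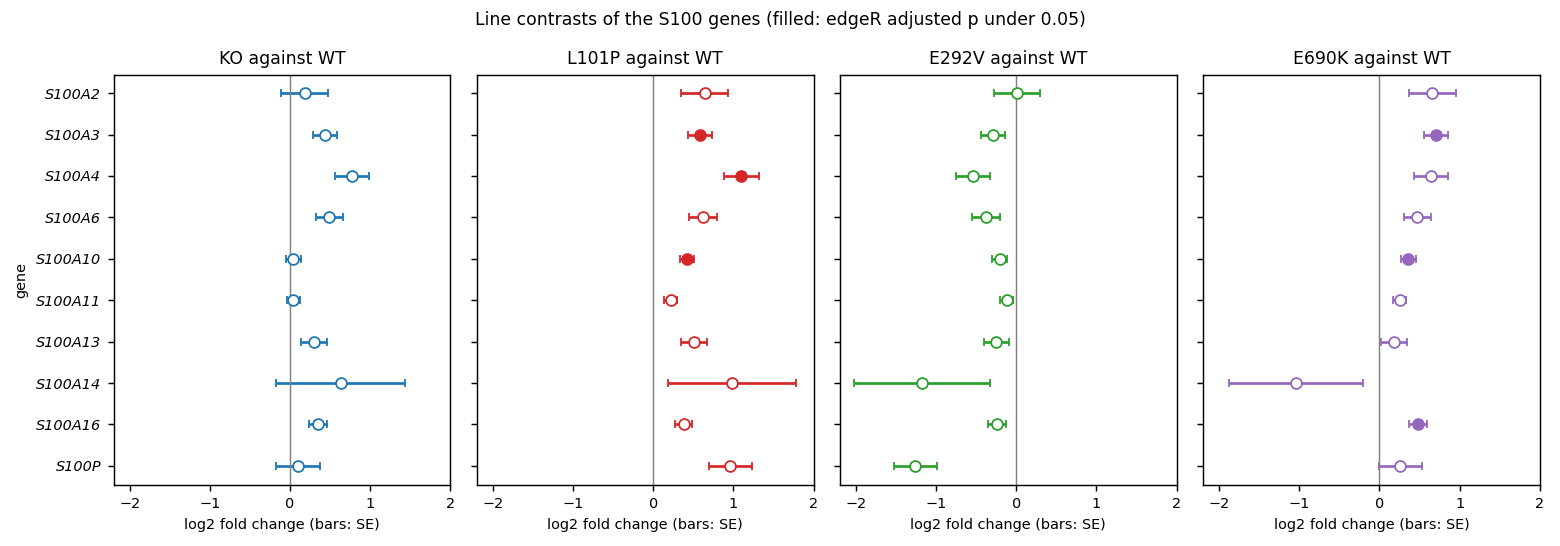
Log2 fold change of each S100 gene (rows) in each of the other 4 lines against WT (panels), with bars for the standard error and filled points for an edgeR adjusted p under 0.05. L101P values run from 0.22 to 1.10 and lie above 0 for all 10 genes, while E292V values lie below 0 for 9 genes.

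In L101P the 3 members called higher compare with 2.33% of all genes tested called higher, and 1.61% called lower. S100A4 rose by 1.10 ± 0.22 (log2, SE; 2.14-fold; edgeR adjusted p = 0.0157). S100A3 rose by 0.58 ± 0.15 (edgeR adjusted p = 0.0456) and S100A10 by 0.42 ± 0.09 (0.0271). S100P at 0.96 ± 0.27 (edgeR adjusted p = 0.0689) and S100A6 at 0.62 ± 0.17 (0.0598) missed the threshold. The median of the 10 members was 0.60, against -0.01 over all genes tested, and all 10 lay above 0.

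The L101P differences sat mostly in the transduced pair of libraries. In the untreated pair the median difference of the members from WT was 0.15 (log2), and in the transduced pair 1.02. S100A4 differed by 0.47 in the untreated and 1.63 in the transduced pair, and S100A6 by 0.11 and 1.09. Without the transduced L101P library 1 member was called, S100A4, at 0.52. In that setting 3.31% of all genes were called in either direction, against 3.94% with all libraries. The count was also 1 without the KO pair (2.47% of all genes called), 0 without the E690K pair (2.06%) and 7 with a correction for GC content and length (5.44%).

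In E690K the 3 members called higher compare with 3.05% of all genes called higher, and 2.33% called lower. S100A3 rose by 0.70 ± 0.15 (log2, SE; 1.63-fold; edgeR adjusted p = 0.0160), S100A16 by 0.48 ± 0.11 (0.0258) and S100A10 by 0.36 ± 0.09 (0.0403). The differences stood in both pairs of libraries: S100A3 lay above WT by 0.66 in the untreated and 0.74 in the transduced pair, and S100A16 by 0.41 and 0.56. The median of the members was 0.41, against -0.02 over all genes, and 9 of 10 lay above 0, S100A14 at -1.04 ± 0.84 being the other. S100A3 was called under all 11 other settings. The count was 1 without the KO pair, where 3.60% of all genes were called in either direction, and 7 without the L101P pair or its transduced library, where 11.2% were called each time, against 5.38% with all libraries.

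In KO no member passed, where 0.807% of all genes were called higher and 0.990% lower. The edgeR unadjusted p was under 0.05 for 4 members (S100A3, S100A4, S100A6 and S100A16), and for 2532 of the 17978 genes tested. DESeq2 called 1 member, S100A16. The largest value was that of S100A4 at 0.77 ± 0.21 (log2, SE; edgeR adjusted p = 0.0998). The fitted median of the 10 was 0.33, and all 10 fitted values lay above 0. In the untreated pair only 6 of the 10 lay above WT, with a median difference of 0.07. In the transduced pair all 10 did, with a median of 0.51. S100A10 and S100A11 lay close to WT, each at 0.04, with SE of 0.09 and 0.08. The count was 4 without the L101P pair or its transduced library, where 6.34% and 6.43% of all genes were called in either direction, against 1.80% with all libraries.

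In E292V no member passed either, where 0.295% of all genes were called higher and 0.756% lower. Both E292V libraries lay below both WT libraries for 9 members, against 20.3% of the genes tested. S100P lay lowest at -1.26 ± 0.27 (log2, SE; 0.419-fold; edgeR adjusted p = 0.0535), at -1.08 in the untreated and -1.52 in the transduced pair. S100A4 lay at -0.54 ± 0.21 (0.375) and S100A6 at -0.38 ± 0.17 (0.456). The edgeR unadjusted p was under 0.05 for 4 members, and for 1857 of the 17978 genes tested. DESeq2 called 0 members in E292V. Without the transduced L101P library 3 members were called lower, namely S100P at -1.27 (edgeR adjusted p = 1.7e-05), S100A4 at -0.54 (2.1e-04) and S100A6 at -0.37 (0.00607). In that setting 4.21% of all genes were called in either direction, against 1.05% with all libraries.

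The vector effect asked whether transduction changed the S100 genes over the 5 lines. No member passed, and of all genes tested 0% were called higher and 0% lower. The edgeR unadjusted p was under 0.05 for 2 members, S100A3 at 0.24 ± 0.09 (log2, SE) and S100A14 at 1.20 ± 0.53, and for 1236 of all genes. DESeq2 called 0 members. The changes differed by line: from the untreated to the transduced library 10 of 10 members were higher in L101P, with a median of 0.64, and 1 of 10 in WT, with a median of -0.16. KO (median 0.19), E292V (0.04) and E690K (0.05) lay between.

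**Figure D3:**
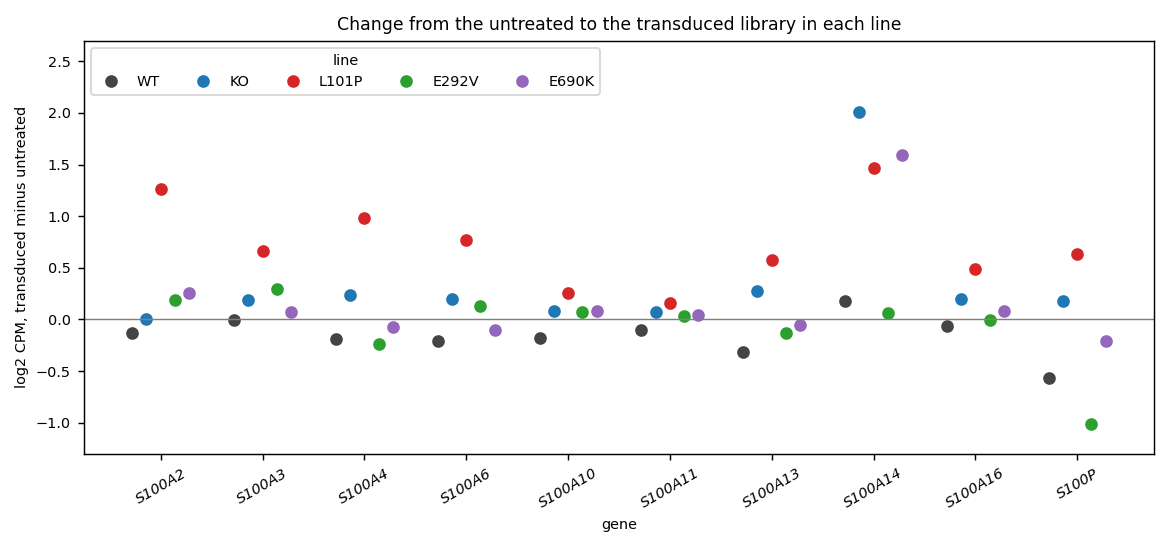
Difference in log2 CPM between the transduced and the untreated library of each line (vertical axis) for the 10 S100 genes (horizontal axis), 1 point per line and gene. The L101P points lie at 0.16 to 1.47, above 0 for all 10 genes, and are the highest of the 5 lines for every gene except S100A14.

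A term of its own for the difference between the L101P libraries was then fitted, a choice made after this pattern was seen, with 19236 genes tested. L101P has 1 pair of libraries, so the spread comes from the other 4 lines only and L101P is assumed to vary like them. ABCA3 was lower in the transduced than in the untreated L101P library (896 against 1156 CPM), and EGFP was close in the transduced and untreated E690K libraries (1406 against 1236 counts). The difference between the libraries was larger in L101P than in the other 4 lines for 5 of the 10 members, where 1.61% of all genes were called larger and 0.775% smaller. The difference was 1.04 ± 0.13 (log2, SE) for S100A4 (edgeR adjusted p = 5.3e-05) and 0.76 ± 0.13 for S100A6 (0.00107). It was 1.01 ± 0.24 for S100P (0.0223), 0.63 ± 0.16 for S100A13 (0.0284) and 0.44 ± 0.11 for S100A16 (0.0383). S100A10 at 0.25 ± 0.11 (0.294) and S100A11 at 0.15 ± 0.11 (0.568) did not pass.

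S100A4 and S100A6 were called under all 11 other settings of this test, with differences of 0.86 to 1.16 and of 0.58 to 0.86. The other 3 calls were lost without the WT pair, without the E690K pair and with the correction for GC content and length, which left 2 called each time (1.02%, 1.38% and 1.42% of all genes called in either direction, against 2.39%), and DESeq2 gave S100P an adjusted p of 0.348. The L101P pair differed most in depth of all pairs, and its median change was -0.04 (log2) in the fifth of genes lowest in GC content and 0.08 in the fifth highest. The members have a GC content of 52.8% (S100P) to 60.2% (S100A6), higher than that of 63.4% to 85.7% of the 12790 genes compared.

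The keratin markers of simple epithelium moved in the same libraries. Of EPCAM, CDH1, KRT8, KRT18 and KRT19, 4 passed the test of any line difference, against 13% of all genes tested. All 5 were detected. They summed to 6836 CPM in untreated and 6269 CPM in transduced WT, 7474 and 8668 in KO, 7704 and 11799 in L101P, 5878 and 5364 in E292V, and 7983 and 7760 in E690K. The highest sum was thus in the transduced L101P library and the lowest in E292V, as for most S100 genes. Most of the sum was KRT8 (3673 to 7946 CPM) and KRT18 (1587 to 3334 CPM). CDH1 went another way, from 21.8 CPM in transduced E690K to 35.4 CPM in untreated E292V. KRT19 rose by 1.24 ± 0.26 (log2, SE) in L101P (edgeR adjusted p = 0.0211) and by 1.03 ± 0.26 in E690K (0.0368), and KRT8 by 0.55 ± 0.14 in L101P (0.0476). EPCAM had another order of lines: it rose in KO by 1.25 ± 0.17 (0.00434) and in E690K by 0.71 ± 0.17 (0.0327), and lay at 0.65 ± 0.17 in E292V (0.122). DESeq2 called KRT19 in L101P and not in E690K, did not call KRT8 or KRT18 in any comparison, and called EPCAM in KO, E690K and E292V. For any line difference it called EPCAM, KRT19 and CDH1, the last of which edgeR did not call (edgeR adjusted p = 0.0957). The part of an epithelial shift in the S100 differences was not tested.

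Of 14 genes of stratified epithelium, the setting in which S100A2 is best known, 8 could be tested and 5 passed the test of any line difference. KRT17 rose by 2.60 ± 0.30 (log2, SE) in L101P and 2.81 ± 0.30 in E690K (edgeR adjusted p = 0.00130 and 2.8e-04) from a low level of 0.895 to 7.35 CPM over all libraries. KRT16 rose by 2.84 ± 0.42 in L101P and 2.31 ± 0.41 in E690K (0.00413 and 0.00656). SFN rose in E690K by 0.67 ± 0.09 (0.00133), and KRT6A by 3.19 ± 0.68 (0.0177). How reads shared by near-identical keratin genes were counted is not given in the sources used here, so KRT16, KRT17 and KRT6A are uncertain. KRT5, KRT14 and IVL stayed under 1 CPM.

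Markers of other cell types were low or absent. The fibroblast list summed to 75.4 and 118 CPM in the E292V libraries and to 16.4 to 46.8 CPM in the 8 others, most of it COL1A1, which rose in E292V by 1.42 ± 0.26 (log2, SE; edgeR adjusted p = 0.0214). LUM, at 1.57 to 4.05 CPM, rose in E690K by 1.02 ± 0.26 (edgeR adjusted p = 0.0371), while COL1A2, DCN and PDGFRB stayed under 1 CPM. The part of the COL1A1 difference in the E292V results was not tested. The leukocyte list summed to 22.3 to 47.5 CPM, mostly CD68, which rose in L101P by 0.61 ± 0.14 (0.0366), with PTPRC at 0 to 0.134 CPM. The endothelial list stayed at 1.33 CPM or lower. 

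Another 16 expressed genes were listed from the same stretch of chromosome 1, from SETDB1 to TPM3. Of these, 0 were called in any line contrast, in the test of any line difference or for the vector. Unadjusted, 2 of the 16 had an edgeR p under 0.05 for any line difference, as did 4616 of the 17978 genes tested. The median of the 16 against WT was 0.00 (log2) in L101P, where that of the 10 S100 genes was 0.60. It was -0.03 in E690K, where the S100 genes stood at 0.41, 0.02 in KO (0.33) and -0.01 in E292V (-0.27). DESeq2 called TPM3 in E690K and CREB3L4 for any line difference, and no other gene of this list in any comparison. Around S100P, 2 of 9 listed neighbours passed the test of any line difference, against 13% of all genes tested. Both rose in L101P, KIAA0232 by 0.43 ± 0.08 (edgeR adjusted p = 0.0157) and MAN2B2 by 0.45 ± 0.10 (0.0244).

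**Figure D4:**
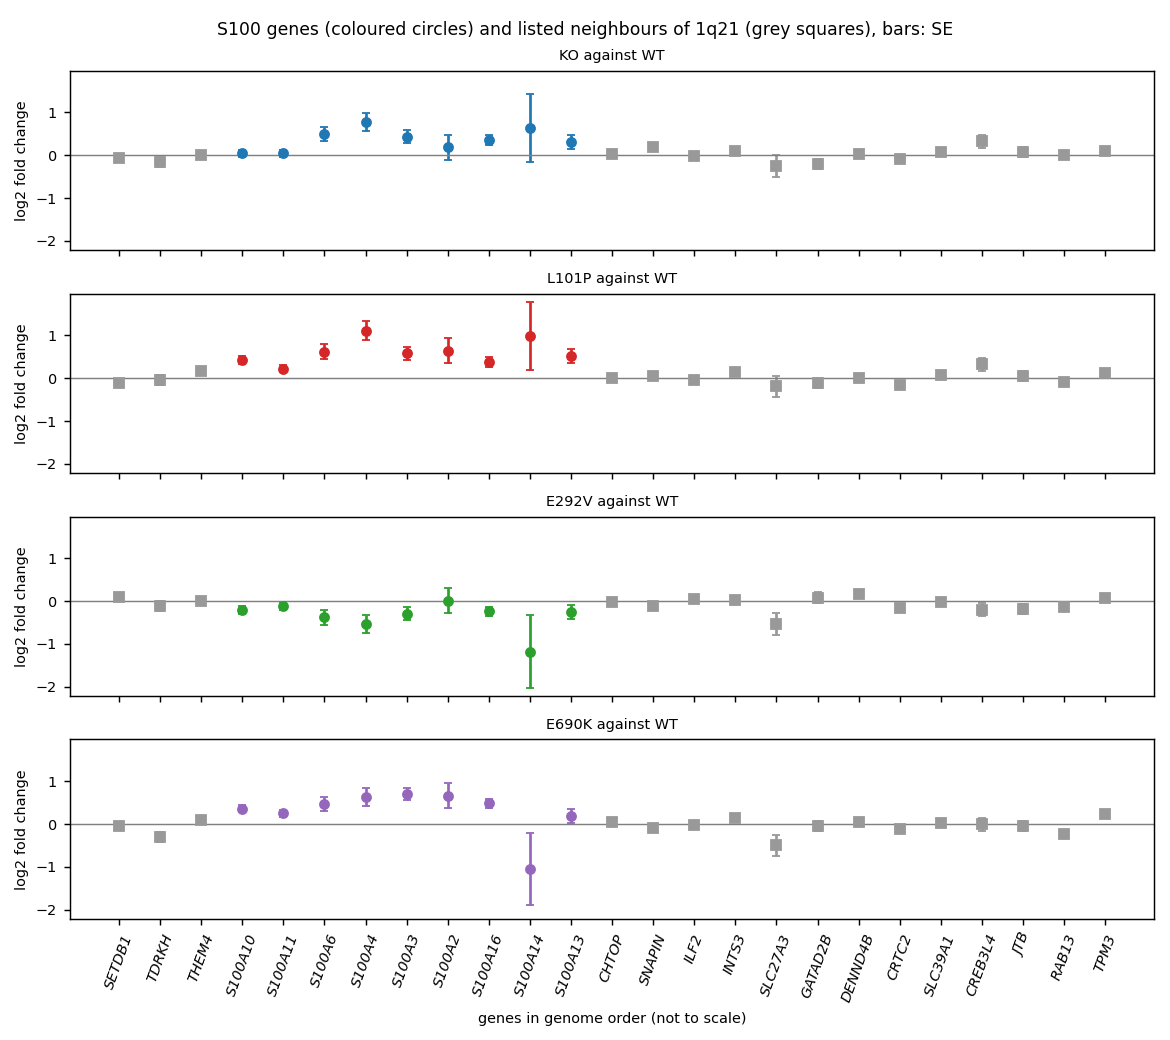
Log2 fold change against WT (vertical axis, bars for the standard error) of the 9 S100 genes of chromosome 1 (coloured circles) and 16 listed neighbours (grey squares) in genome order, 1 panel for each line. The median over the neighbours lies between -0.03 and 0.02 in the 4 panels.

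Of 24 listed partners and receptors of S100 proteins, 22 could be tested and 3 passed the test of any line difference. Of all genes tested, 13% passed it. EZR is described above. ANXA6, an annexin that binds S100A6, ran against the S100 genes: it fell in KO by 0.58 ± 0.12 (log2, SE), in L101P by 0.54 ± 0.12 and in E690K by 0.69 ± 0.12, with edgeR adjusted p of 0.0270, 0.0236 and 0.00443. It lay highest in E292V, at 75.7 and 83.7 CPM. IQGAP1, a scaffold protein that binds S100P, rose in E690K by 0.33 ± 0.07 (0.0252). AHNAK, a partner of the S100A10 complex, rose there by 0.67 ± 0.16 (0.0320), but did not pass the test of any line difference (edgeR adjusted p = 0.0566). The median over the list stayed between 0.02 and 0.08 in the 4 lines.

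Of 19 other genes with EF-hand domains, 3 passed the test of any line difference, against 13% of all genes tested. CAPN2, a large subunit of the calpain proteases, rose in L101P by 0.37 ± 0.08 (log2, SE; edgeR adjusted p = 0.0203) and in E690K by 0.66 ± 0.08 (4.9e-04). EFHD2 rose in E690K by 0.30 ± 0.07 (0.0258). The median of this list against WT was 0.09 in L101P, 0.07 in E690K, 0.02 in KO and -0.06 in E292V.

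The levels of most members were alike over the 10 libraries, which are 5 pairs that share a line. Pearson's r of log2 CPM was highest at 0.99 for S100A10 with S100A11, 0.98 for S100A4 with S100A6 and 0.98 for S100A3 with S100A16. Other pairs came close, such as S100A6 with S100A16 (0.96), S100A4 with S100A13 (0.96) and S100A3 with S100A6 (0.95). Over the 28 pairs of the 8 well-expressed members the median was 0.88 and the lowest 0.74, for S100A3 with S100P. With so few libraries, and with 1 library high for all members, these values describe the libraries only.

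Among 10681 other genes averaging 5 CPM or more, those most like S100A4 over the 10 libraries included TRIOBP (r = 0.994) and MLPH (0.989). TRIOBP (0.988) and FBXW5 (0.986) were among the nearest to S100A6. For S100A10 they were S100A11 (0.989), SLC16A3 (0.969) and TK2 (0.964), and for S100A11 they were S100A10 (0.989), CDA (0.972) and TK2 (0.968). S100A13 lay nearest to the keratins KRT8 (0.984) and KRT18 (0.982), followed by MAZ (0.977). S100A3 had PBK (0.989), WNT7B (0.984) and AURKA (0.980), S100A16 had SERPINB8 (0.984), PHF19 (0.984) and IGFBP6 (0.980), and S100P had ZBTB7B (0.967), LLGL2 (0.966) and RPH3AL (0.966).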

How the data were processed

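RNA sequencing libraries of the 10 samples were summarised by the authors as whole-number counts per gene, as deposited. The submitters' processing notes name featureCounts, Subread, edgeR and limma with build GRCh38, without versions. The annotation release, the use of strand and the treatment of multi-mapping reads are not given in the sources used here. Of the 33551 row names, 98.7% matched a symbol of GENCODE release 29, which gave the coordinates and exon lengths. Even values made up 81.4% of the deposited counts from 1 to 10, so Wilson intervals were taken on the count divided by 2. Reads carry no molecular identifiers.

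Counts were fitted in edgeR 4.0.16 (R 4.3.3) with filterByExpr, TMM scaling and an additive model with terms for line and for vector (10 libraries, 4 residual degrees of freedom, biological coefficient of variation 12.9%). The 5 lines served as the replicates of the vector with line as a block, and the quasi-likelihood test was adjusted by the Benjamini-Hochberg method over all genes tested, threshold 0.05. The 2 libraries of a line pair because they share a cell line. With 1 library for each line and treatment, p-values judge a contrast against the departure of the libraries from additivity, which may be technical. The fit was tested on simulated counts. DESeq2 1.42.0, other filters, scalings and left-out pairs were alternatives.

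The members and gene lists were chosen with earlier results of these data known. Named genes were all 10 members, up to 4 genes per list called in a line contrast by the smallest adjusted p for any line difference, ANXA1 and ANXA2 always, and the 3 genes nearest each called member by Pearson's r. Some genes that this rule names are not reported here.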

Additional observations from a re-analysis of the deposited data

Results flagged for a closer look

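The difference between the vector change in L101P and that in the other 4 lines passed the edgeR test for 5 members and is listed here because the lines differ in their change under the same contrast. It was 1.04 (log2) for S100A4, 0.76 for S100A6, 0.63 for S100A13, 0.44 for S100A16 and 1.01 for S100P. The term was fitted after the pattern had been seen and rests on 1 pair of libraries.

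The change of S100A2 with the vector in L101P lay far from its change in WT, KO, E292V and E690K, with a gap of 0.718 of the whole range against Dixon's 95% limit of 0.710 for 5 values. It was 1 of 20 sets tested, and chance alone passes the limit in about 1 set of 20.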

How the results depend on the processing

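The count of members called for any line difference was 8; it stayed at 6 to 8 except without the E292V pair, which left 3. Leaving out each pair in turn gave 0 to 4 for KO, 0 to 4 for L101P, 0 to 3 for E292V, 1 to 7 for E690K and 2 to 6 for the L101P vector term. With no filter on low counts the counts were 4, 7, 3 and 6 for KO, L101P, E292V and E690K. With the KO labels exchanged L101P and E690K had 1 each. DESeq2 called 1 in KO and 5 in L101P, and halved counts gave 1 in E292V. The correction for GC content and length gave 2 in KO, 7 in L101P, 6 in E690K and 2 for the L101P vector term, and at least 10 counts in every library gave 3 for that term. Without the transduced L101P library the counts were 7 in E690K, 4 in KO, 3 in E292V and 1 in L101P. The share of all genes called also moved between settings, as the values given above for some of them show. For the other settings that share is not reported here, so their counts are not read as a result about the members. These counts alone therefore do not set the members apart from all genes. The causes were not tested.

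The vector effect called 0 members in all settings tried, also with no replicate block, where line was not a term (0 called). Among uncalled values 8 changed sign. The vector effect of S100A13 became -0.04 with the KO labels exchanged and -0.05 without the transduced L101P library, and ran from -0.05 (without the L101P pair) to 0.17 with pairs left out. That of S100A4 became -0.06 without that library and ran from -0.06 (without the L101P pair) to 0.24. That of S100P became 0.02 with no replicate block and ran from -0.39 to 0.01 (without the E292V pair), and S100A2 in L101P against WT became -0.03 without the transduced L101P library. Of 807 values, 709 kept their direction and side of the threshold. The correction, the settings without the transduced L101P library and the L101P vector term were chosen after seeing the data. S100A14, with 4 to 74 counts, is limited by depth.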
